A study of Mus musculus with 12 samples.

Results

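The genes of 9 peptidases of the intestinal brush border were compared between the small intestine of mice given TUDCA and of mice given vehicle: Ace, Dpp4, Anpep, Mep1a, Mep1b, Enpep, Mme, Xpnpep2 and Naaladl1. They were chosen by name, with earlier results of these data known. Each had 1 probe set annotated to it alone, so that 9 of the 23991 probe sets on the arrays are described. The 12 arrays were made from wild-type BALB/c mice that had been irradiated and had received bone marrow and T cells of a C57BL/6N donor, a procedure that provokes acute graft-versus-host disease, the attack of donor T cells on the recipient's gut and other tissues. Tissue was taken on day 14. The TUDCA group of 6 arrays was injected daily into the peritoneum with tauroursodeoxycholic acid, a taurine-conjugated bile acid, at 200 mg/kg. The vehicle group of 6 arrays received the same volume, 200 µl, without the bile acid. The age of the mice, the segment of the small intestine and whether each array came from a separate mouse are not given in the labels, so p-values measure the spread between these arrays. The sample numbers in the labels form a low range, from 57 to 70, and a high one, and what they stand for is not stated. The low range holds 4 arrays of vehicle and 2 of TUDCA, the high range 2 of vehicle and 4 of TUDCA, and every difference was estimated within ranges. A log2 value is the brightness of a probe set after normalisation, so that equal differences on this scale are equal ratios. The number of arrays limits the precision.

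Brush border peptidases are enzymes on the microvilli of absorptive enterocytes that trim the peptides left by pancreatic digestion into single amino acids and short peptides, which transporters then carry into the cell. Most are anchored in the membrane with the catalytic part facing the lumen, and several also cut hormones and vasoactive peptides. They divide into exopeptidases, which remove residues from an end of the chain, and endopeptidases, which cut within it.

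Promoter sequences of RefSeq (GRCm38.p6) were used for 7 of the 9 genes. The absence of the others here does not show that RefSeq lists none for them. The 250 bases before the start site are shown for the gene with the largest difference, Ace, for Anpep, which also has a GC-rich stretch (72.8% G or C, and 67.2% in Ace) but a small difference, for Dpp4, and for Enpep, the one gene that did not pass the test. Each runs 5′ to 3′ along the gene's strand, and capitals mark matches to the motifs searched.
Ace, chr11:105967698-105967947, plus strand: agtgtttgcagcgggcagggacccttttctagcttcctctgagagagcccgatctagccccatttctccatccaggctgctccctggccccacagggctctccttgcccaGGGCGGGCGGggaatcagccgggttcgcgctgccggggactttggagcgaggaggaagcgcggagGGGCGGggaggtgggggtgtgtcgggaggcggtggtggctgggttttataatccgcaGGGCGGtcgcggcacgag
Anpep, chr7:79848211-79848460, minus strand: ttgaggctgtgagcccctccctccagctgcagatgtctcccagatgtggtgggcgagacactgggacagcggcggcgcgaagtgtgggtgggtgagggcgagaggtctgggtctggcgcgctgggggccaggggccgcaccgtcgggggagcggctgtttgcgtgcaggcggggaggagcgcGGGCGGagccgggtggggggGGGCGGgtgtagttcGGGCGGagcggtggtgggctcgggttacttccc
Dpp4, chr2:62412232-62412481, minus strand: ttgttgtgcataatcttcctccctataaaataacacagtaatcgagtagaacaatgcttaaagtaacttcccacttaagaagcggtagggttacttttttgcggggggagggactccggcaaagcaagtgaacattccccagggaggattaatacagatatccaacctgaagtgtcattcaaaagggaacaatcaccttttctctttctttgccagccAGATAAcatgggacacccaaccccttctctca
Enpep, chr3:129332750-129332999, minus strand: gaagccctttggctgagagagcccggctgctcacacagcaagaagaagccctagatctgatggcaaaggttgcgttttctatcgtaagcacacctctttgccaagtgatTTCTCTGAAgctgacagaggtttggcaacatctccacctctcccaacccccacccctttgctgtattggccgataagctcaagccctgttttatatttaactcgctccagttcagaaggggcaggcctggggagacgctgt
The motifs were GGGCGG of Sp1, AGATAA of GATA factors, GTTAAT of HNF1, CAAAGTCCA of HNF4, TTTATGG of CDX factors and TTCNNNGAA of STAT factors, searched on both strands in 10 windows of the 7 genes. GGGCGG was present 4 times in the stretch of Ace, where the pair at −140 to −135 and −136 to −131 from the start site overlap. It was present 3 times in that of Anpep and 5 times over the 3 windows of Mme, each of which held it. Of all 32817 windows of this length that were counted, 32.7% held it. AGATAA was present once in Dpp4 (9.99% of all windows). The start site used for Dpp4 lies inside the annotated gene, which reaches to position 62412315, and so does this match. The windows of Mep1a and Xpnpep2 and the later ones of Ace and Mme, not shown, also lie inside their genes. The later window of Ace held no match to any of the motifs. TTCNNNGAA was present once in Enpep and once in 1 window of Mme (7.01% of all windows). None of the 10 windows held GTTAAT, CAAAGTCCA or TTTATGG, letters found in 6.44%, 0.384% and 2.43% of all windows. A match is a description of these letters and not a site of binding.

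With TUDCA, 8 of the 9 peptidase genes were lower at an adjusted p under 0.05 and none was higher (limma, Benjamini-Hochberg over all probe sets), where 1.52% of all probe sets were called lower and 1% higher. At an unadjusted p under 0.05 all 9 were lower and none higher, beside 6.84% and 7.24% of all probe sets. The differences ran from −1.20 for Ace to −0.16 for Enpep, with a median of −0.38 beside 0.01 over all probe sets. For 6 genes the values of the groups did not overlap, TUDCA being lower (1.18% of all probe sets). For 7 genes all 6 TUDCA arrays lay below the vehicle mean of their number range (7.3% of all probe sets). Since the 9 genes were chosen with earlier results of these data known, these counts are descriptions. Without TUDCA replicate 1, the array on which 6 of the 9 genes had their lowest value, 4 genes were called lower (0.629% of all probe sets). These were Ace, Dpp4, Mep1a and Mep1b. In whole tissue, fewer enterocytes and less of a transcript per enterocyte cannot be told apart.

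**Figure D1:**
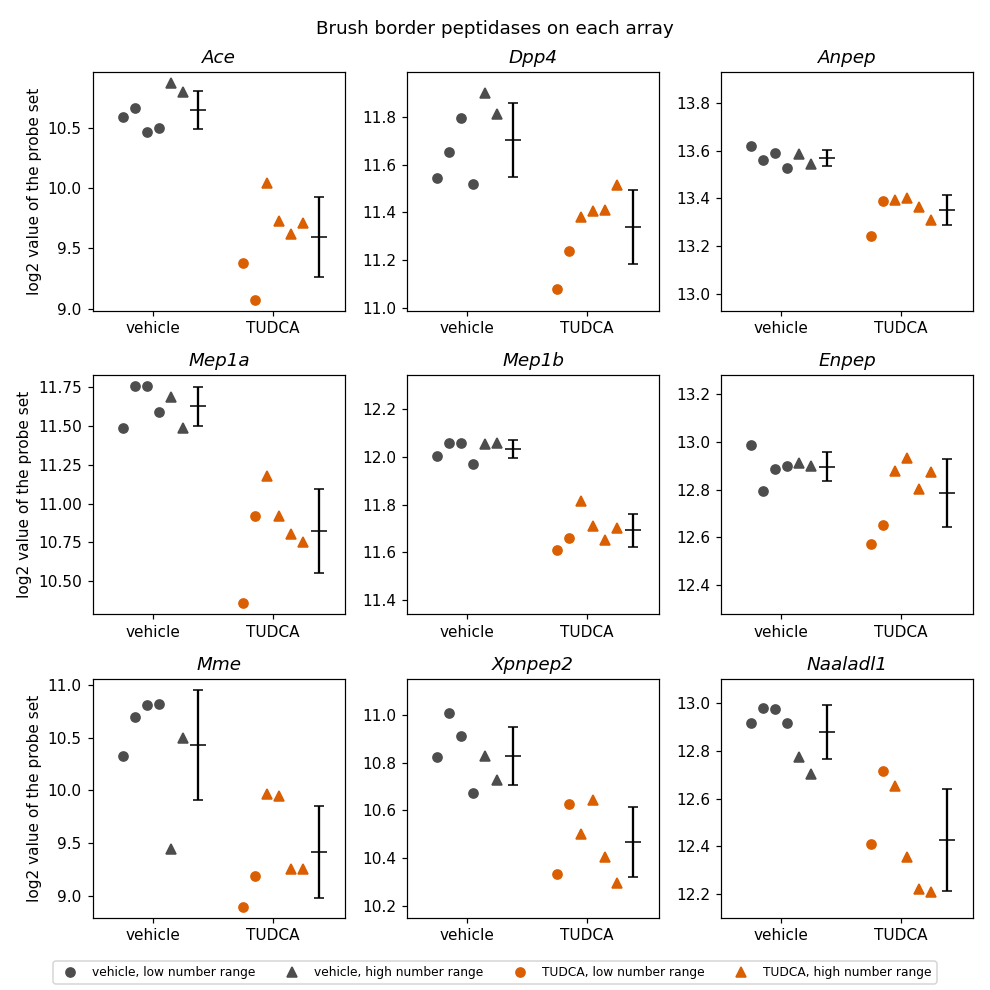
Log2 value of each peptidase gene (vertical axis, own scale per panel) on the 6 vehicle and 6 TUDCA arrays; circles are arrays of the low and triangles of the high number range, and the bar beside each group is the mean ± SD. The groups do not overlap for Ace, Dpp4, Anpep, Mep1a, Mep1b and Xpnpep2, and overlap for Naaladl1, Mme and Enpep.

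Ace encodes angiotensin-converting enzyme, a zinc peptidase that removes dipeptides from the carboxyl end and turns angiotensin I into angiotensin II. Its log2 value was 9.07, 9.67 and 10.04 (lowest, median and highest) on the TUDCA arrays, and 10.47, 10.63 and 10.88 on the vehicle arrays. Every TUDCA array was thus below every vehicle array, and the arrays of both ranges showed this. The mean was 9.59 ± 0.33 (SD, n = 6) with TUDCA and 10.65 ± 0.16 (SD, n = 6) with vehicle. The difference within ranges was −1.20 ± 0.09 (SE; 95% interval −1.38 to −1.01, adjusted p = 1.29e-05 in limma), which placed Ace at 43.7% of the vehicle level (interval 38.4% to 49.7%). By p, it ranked 2 among all 23991 probe sets. It was −1.33 in the low and −1.06 in the high range, and Ace was the one gene of the 9 that passed within the high range alone (adjusted p = 0.035), where 0.0125% of all probe sets were called lower. RefSeq lists a start site of Ace at the gene's beginning and another inside it, the kind of arrangement known from the shorter testis form of the enzyme. The single probe set does not separate such forms.

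Dpp4 encodes dipeptidyl peptidase 4, a serine exopeptidase that takes dipeptides off the amino end and inactivates the incretin hormones. Its lowest, median and highest log2 values were 11.08, 11.39 and 11.51 with TUDCA and 11.52, 11.72 and 11.90 with vehicle. The groups did not overlap, although the highest TUDCA array came close to the lowest vehicle array. Dpp4 fell by 0.45 (difference −0.45 ± 0.06 SE, adjusted p = 0.00172 in limma) to 73.2% of the vehicle level, with −0.47 in the low and −0.43 in the high range. Dpp4 is also the T cell surface protein CD26. Of 10 measured T and NK cell markers 4 fell and none rose, with a median difference of −0.50 and mean levels per array from 5.98 to 6.998 with TUDCA and from 6.79 to 7.53 with vehicle. The call of 1 of the 4, Cd3g, ended with each of the 12 omissions of a single array (adjusted p up to 0.114), and those of Cd3e, Cd8a and Cd8b1 stayed with all 12. Their part in the result was not tested.

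The meprins are astacin-type zinc endopeptidases: Mep1b encodes the membrane-anchored beta subunit, and Mep1a the alpha subunit, which is retained at the membrane through beta or released into the lumen. Mep1a had log2 values of 10.36, 10.86 and 11.18 (lowest, median, highest) with TUDCA and 11.49, 11.64 and 11.76 with vehicle. Mep1b had 11.61, 11.68 and 11.82 with TUDCA and 11.97, 12.05 and 12.06 with vehicle. For both genes every TUDCA array was below every vehicle array. Mep1a fell by 0.84 (difference −0.84 ± 0.11 SE, adjusted p = 0.00171 in limma), to 55.9% of the vehicle level. The fall of Mep1b was smaller, 0.36 (difference −0.36 ± 0.05 SE, adjusted p = 0.00171 in limma), to 77.9%. The log2 value of Mep1a minus that of Mep1b was −0.87 ± 0.22 (SD, n = 6) with TUDCA and −0.41 ± 0.11 (SD, n = 6) with vehicle, without overlap. This change of −0.48 ± 0.11 (SE) in the balance of the transcripts had a two-sided exact permutation p of 0.00444. That is the smallest p that the 225 relabelings within ranges can give (0.00888 after Benjamini-Hochberg adjustment over the 2 pairs compared). The subunit proteins were not measured. The pair was picked with the values known.

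Anpep and Enpep encode zinc aminopeptidases of one family. Aminopeptidase N, the product of Anpep, removes mostly neutral residues and is among the most abundant proteins of the brush border, and aminopeptidase A, the product of Enpep, removes acidic residues and converts angiotensin II to angiotensin III. Anpep had log2 values of 13.24, 13.38 and 13.40 (lowest, median, highest) with TUDCA and 13.53, 13.57 and 13.62 with vehicle. The groups did not overlap, and all values lay close to the highest in the table, 13.84. Anpep fell by 0.23 (difference −0.23 ± 0.05 SE, adjusted p = 0.0202 in limma), to 85.4% of the vehicle level. Under renewed quantile normalisation, which makes the upper ends of the arrays equal, the difference was −0.06 (adjusted p = 0.599), and without TUDCA replicate 1 it was −0.19 (adjusted p = 0.1). Of the 11 myeloid cell markers, cells that carry aminopeptidase N as CD13, none passed in limma (2 lower and 1 higher at an unadjusted p under 0.05), with a median of −0.22.

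Enpep had log2 values of 12.57, 12.84 and 12.93 with TUDCA and 12.80, 12.90 and 12.99 with vehicle, and the groups overlapped. The low values were those of TUDCA replicates 1 and 2, while the 4 TUDCA arrays of the high range lay among the vehicle arrays. The difference was −0.16 ± 0.06 (SE; 95% interval −0.28 to −0.03, adjusted p = 0.222 in limma), so it did not pass. It was −0.28 in the low and −0.03 in the high range, with an unadjusted interaction p of 0.0264 (adjusted p = 0.598). The log2 value of Anpep minus that of Enpep was 0.57 ± 0.12 (SD, n = 6) with TUDCA and 0.67 ± 0.05 (SD, n = 6) with vehicle. The change of this balance was −0.07 ± 0.04 (SE, two-sided exact permutation p = 0.151), the other of the 2 pairs compared.

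Xpnpep2 encodes the membrane-bound aminopeptidase P, which releases an amino-terminal residue that stands before proline and degrades bradykinin. It had log2 values of 10.29, 10.45 and 10.64 (lowest, median, highest) with TUDCA and 10.67, 10.82 and 11.01 with vehicle. The groups did not overlap, by a narrow margin. The gene fell by 0.34 (difference −0.34 ± 0.08 SE, adjusted p = 0.0336 in limma), to 78.8% of the vehicle level. The call ended when any 1 of 8 arrays was left out, namely TUDCA replicates 1, 5 and 6 and vehicle replicates 1, 2, 3, 5 and 6, with adjusted p up to 0.159 and differences from −0.39 to −0.28 over all omissions.

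Naaladl1 encodes a membrane peptidase related to glutamate carboxypeptidase II and described in ileum. It had log2 values of 12.21, 12.38 and 12.72 (lowest, median, highest) with TUDCA and 12.70, 12.92 and 12.98 with vehicle. The groups touched through a single pair, TUDCA replicate 2 and vehicle replicate 6, which belong to different number ranges, and within each range they did not overlap. Naaladl1 fell by 0.38 (difference −0.38 ± 0.08 SE, adjusted p = 0.0201 in limma), to 76.7% of the vehicle level, with −0.38 in both ranges. Without TUDCA replicate 1 the difference was −0.32 (adjusted p = 0.101).

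Mme encodes neprilysin, a zinc endopeptidase that cuts before hydrophobic residues and degrades many signalling peptides. Its log2 values were 8.90, 9.25 and 9.97 (lowest, median, highest) with TUDCA and 9.44, 10.59 and 10.82 with vehicle. The groups overlapped because vehicle replicate 5, at 9.44, lay among the TUDCA arrays. Mme fell by 0.99 (difference −0.99 ± 0.25 SE, adjusted p = 0.0496 in limma), to 50.3% of the vehicle level, with an interval from 34.9% to 72.7% that is the widest of the 9 genes. The difference was −1.62 in the low and −0.36 in the high range, an interaction of 1.26 ± 0.38 (SE) with an unadjusted p of 0.00552 and an adjusted p of 0.516. Without vehicle replicate 5 it was −1.35 (adjusted p = 0.00215), and the call ended without TUDCA replicate 1, 2, 5 or 6 or vehicle replicate 1, 2, 3, 4 or 6 (adjusted p up to 0.213). Stromal cells also carry neprilysin, and of the 10 fibroblast markers none passed in limma (0 lower and 0 higher at an unadjusted p under 0.05), with a median of 0.01.

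**Figure D2:**
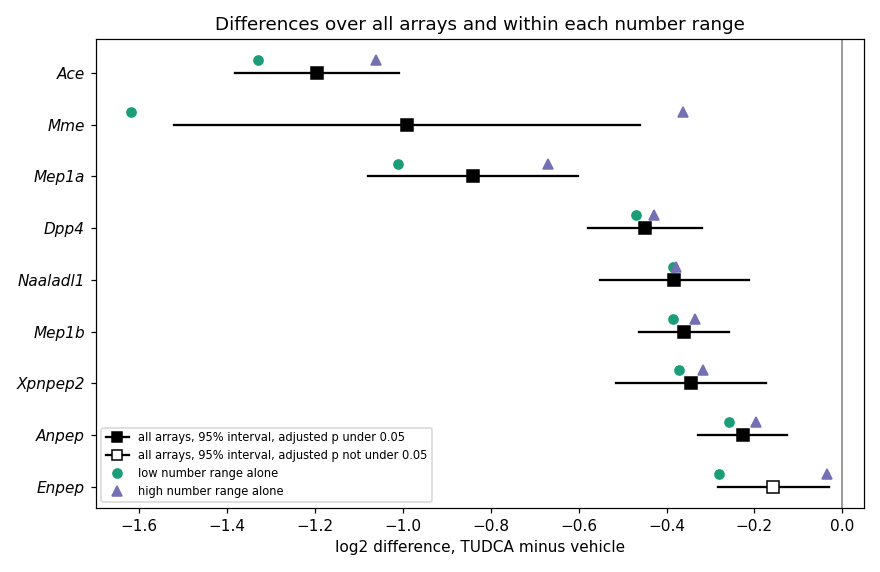
Log2 difference, TUDCA minus vehicle (horizontal axis), of each peptidase gene: squares with bars give the estimate over all arrays with its 95% interval, circles the low and triangles the high number range alone. All symbols lie below 0, and Mme has the largest distance between ranges (−1.62 and −0.36).

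The difference had the same negative sign within both ranges for all 9 genes. For all 9 it was smaller in size in the high range, though for Naaladl1 only by 0.006 ± 0.16 (SE). The shares of all probe sets with these 2 patterns were not counted. Within the low range the groups did not overlap for any of the 9 genes, TUDCA being lower (10.8% of all probe sets). Within the high range this held for 7 genes (9.13% of all probe sets), the exceptions being Enpep and Mme. The low range alone called 5 genes lower (1.38% of all probe sets), and the high range alone, with 2 vehicle arrays, called 1. No interaction between treatment and range passed in limma (0% of all probe sets), and 2 genes, Mme and Enpep, had an unadjusted interaction p under 0.05 (7.68% of all probe sets). The mean of the 9 centred log2 values was −0.49 on TUDCA replicate 1 and −0.05 on TUDCA replicate 3, the ends of the TUDCA group, and from 0.20 to 0.33 on the vehicle arrays.

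**Figure D3:**
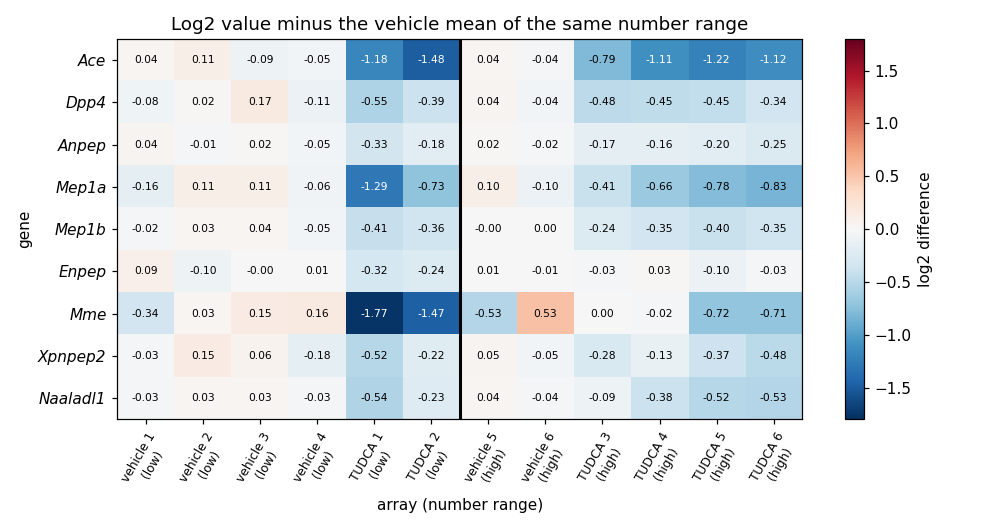
Log2 value of each peptidase gene (rows) on each array (columns, number range in brackets) minus the vehicle mean of the same range; blue is lower and red higher, and the line parts the ranges. All 9 genes are blue on TUDCA replicates 1 and 2, and on TUDCA replicates 3 and 4 Enpep and Mme are near 0.

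Once the means of each group and range were taken off, the 9 genes varied together only in part. Over the 12 arrays the correlation of these deviations was positive for 30 of the 36 pairs of genes, with a median Pearson r of 0.35. It was highest between Mep1a and Naaladl1 (r = 0.90) and lowest between Ace and Dpp4 (r = −0.40). All pairs share the arrays and their normalisation, so these are descriptions. By the same deviations over the 12 arrays, with the treatment difference thus taken off, the closest among other genes brighter than the median probe set was Bambi for Ace (r = 0.93), Shd for Dpp4 (r = 0.94), Derl1 for Anpep (r = 0.95), Dnajc22 for Mep1a (r = 0.94) and Etnk1 for Mep1b (r = 0.94). It was Fcsk for Enpep (r = 0.96), Egln1 for Mme (r = 0.93), Retreg2 for Xpnpep2 (r = 0.95) and Pnpla6 for Naaladl1 (r = 0.96). Each is the highest r of a search through all such genes over 12 arrays. Unrelated genes can reach so high an r in such a search, so none is taken as a partner of a peptidase gene. None of these 9 closest genes was called between treatments (differences from −0.26 to 0.18, adjusted p from 0.0538 to 0.941 in limma). The second closest to Naaladl1 was Abcg8, a half-transporter of sterols (r = 0.95), which was lower with TUDCA (difference −0.79, adjusted p = 9.05e-05). The deviations of Mme went with those of the mean of the enterocyte markers (r = 0.84), whereas for the other peptidase genes this r lay between −0.24 (Enpep) and 0.59 (Mep1b). With the all-epithelium mean, r ran over the 9 genes from −0.63 (Ace) to 0.34 (Dpp4), Mme being at −0.52. With the T and NK cell mean it ran from −0.62 (Dpp4) to 0.08 (Ace), and with the endothelial mean from −0.30 (Dpp4) to 0.48 (Ace).

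Among other peptidases of the cell surface and lumen, 18 of 32 probe sets had a mean under the median of all probe sets, whereas all 9 members lay above it. Of these 32 measured genes none passed in limma in either direction (2 lower and 2 higher at an unadjusted p under 0.05), with a median of −0.06 and a range from −0.28 to 0.33. The 5 with the smallest p were the membrane serine proteases Tmprss2 (0.26 ± 0.07 SE, adjusted p = 0.0799) and Tmprss4 (−0.19 ± 0.07 SE), the endothelin-converting enzyme gene Ece1 (−0.23 ± 0.09 SE), Naaladl2 (0.33 ± 0.15 SE) and the elastase gene Cela1 (0.22 ± 0.11 SE). Tmprss2 was called higher with the dim probe sets left out before the fit (adjusted p = 0.0456), with array weights (adjusted p = 0.0293) and when vehicle replicate 4 was omitted (adjusted p = 0.036). Centring on all-epithelium markers called 2 of the genes lower, Tmprss4 and Adam10 (named after its values were seen), and centring on enterocyte markers called 3 higher, Tmprss2, Naaladl2 and Cela1.

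Of 38 probe sets for 37 peptidases of the cytosol and lysosome, 7 were lower and 3 higher at an unadjusted limma p under 0.05. After adjustment 2 fell and none rose, with a median over the list of −0.04. They were Lap3, a leucine aminopeptidase of the cytosol (−0.56 ± 0.09 SE, adjusted p = 0.0043 in limma), and Rnpepl1, an aminopeptidase B-like gene (−0.30 ± 0.07 SE, adjusted p = 0.036). The call of Rnpepl1 ended without any single one of TUDCA replicates 1, 2, 4, 5 and 6 and vehicle replicates 3, 4, 5 and 6 (adjusted p up to 0.108), and that of Lap3 stayed.

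Among 24 genes of peptide and amino acid transport, which take up what the peptidases release, 6 fell and none rose, with a median of −0.22. Before adjustment, 13 of the 24 were lower and 2 higher at a limma p under 0.05. Slc15a1, the proton-coupled carrier of dipeptides and tripeptides, was at 11.09 ± 0.20 (SD, n = 6) with TUDCA and 11.75 ± 0.11 (SD, n = 6) with vehicle. Its difference of −0.70 ± 0.08 (SE, adjusted p = 0.000788 in limma) lay between those of Mep1a and Dpp4. The others were Slc43a2 (−0.58), a carrier of neutral amino acids, Slc7a9 (−0.43), the light chain of the cystine transporter, Slc7a15 (−0.83), Slc6a19 (−0.33), the sodium-dependent carrier of neutral amino acids that aminopeptidase N binds in the brush border, and Slc6a20b (−0.69). The count was 3 without TUDCA replicate 1, TUDCA replicate 2 or vehicle replicate 6, the calls left being those of Slc15a1, Slc43a2 and Slc7a9, which stayed under every omission. The calls of Slc6a19 and Slc6a20b also ended without vehicle replicate 1, 2 or 3, and that of Slc7a15 without TUDCA replicate 5 (adjusted p up to 0.141). Slc6a20b was dim, with means of 4.94 with TUDCA and 5.71 with vehicle, below the array medians (5.90 to 5.95). The means of Slc7a15 were 6.10 with TUDCA and 6.92 with vehicle.

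Of 22 other brush border enzymes and structural genes, 4 fell and none rose, with a median of −0.11: the sphingomyelinase Enpp7 (−2.44), the phospholipase Plb1 (−2.22) and the cadherins Cdhr2 (−0.42) and Cdhr5 (−0.39) that link microvilli. The count was 1, Cdhr5, without TUDCA replicate 1, and the call of Cdhr2 also ended without vehicle replicate 6 (adjusted p up to 0.0792). Before adjustment, 12 of the 22 were lower and none higher at a limma p under 0.05. The mean of Plb1 was 5.07 with TUDCA, below the array medians (5.90 to 5.95), and 7.42 with vehicle. Among 21 genes of hormones, angiotensin and their receptors, whose products the peptidases cut or which bind such products, none passed in limma (3 lower and 2 higher at an unadjusted p under 0.05), with a median of 0.03. Tac1 was at −0.44 (adjusted p = 0.06) and Glp1r at −0.37 (adjusted p = 0.0644). Of 19 transcription factors of enterocytes 3 fell and none rose: Maf (−0.51), Isx (−0.43) and Prdm1 (−0.51). The call of Maf stayed with each array left out, that of Isx ended with 8 of the 12 omissions and that of Prdm1 with 10 (adjusted p up to 0.186). Before adjustment, 9 of the 19 factors were lower and none higher at a limma p under 0.05.

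**Figure D4:**
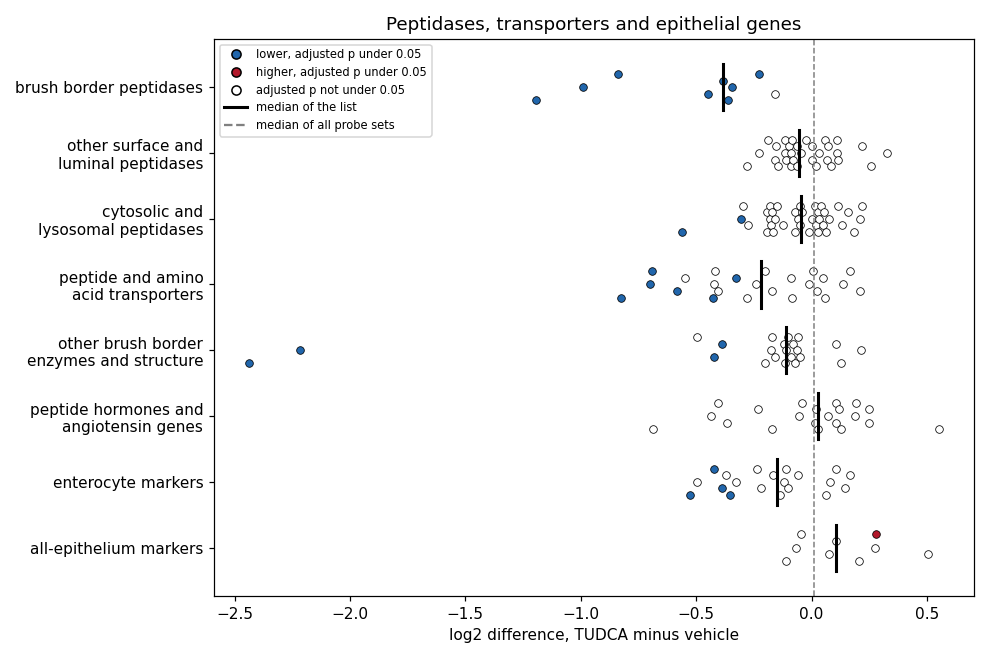
Log2 difference, TUDCA minus vehicle (horizontal axis), of each probe set in 8 gene lists; filled points passed at an adjusted p under 0.05, thick bars are the list medians and the dashed line is the median of all probe sets. The peptidase median is −0.38, the transporter median −0.22 and the all-epithelium median 0.11.

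The labelled tissue was checked with marker lists. Of 20 enterocyte markers, none of them a peptidase, 4 fell and none rose (Apob, Slc26a6, and Cdhr2 and Cdhr5, which the brush border list also holds), with a median of −0.15 and mean levels per array from 10.30 to 10.52 with TUDCA and from 10.41 to 10.69 with vehicle. Without TUDCA replicate 1 the count was 2, the calls of Slc26a6 (adjusted p up to 0.0867) and Cdhr2 having ended. At an unadjusted p under 0.05 in limma, 11 of the 20 enterocyte markers were lower and 1 higher. The shares of all probe sets were 6.84% and 7.24%. Of 9 markers of all epithelium 1, the keratin Krt8, rose by 0.28 and none fell, with a median of 0.11. Leaving out TUDCA replicate 1 or 2 ended this call, with adjusted p up to 0.0853. With the arrays centred on the epithelial markers all 9 peptidase genes were called lower (4.67% of all probe sets). With centring on the enterocyte markers 3 were (0.659% of all probe sets): Ace (−1.02), Mep1a (−0.67) and Mme (−0.82). Enpep then stood at 0.02 (adjusted p = 0.893), and these centrings moved the median of all probe sets to −0.13 and 0.18. The 10 markers of the proximal small intestine had mean levels from 5.10 to 5.48 over all arrays, below the array medians (5.90 to 5.95). The 9 probe sets for 8 distal markers had mean levels from 10.39 to 10.81 with TUDCA and from 10.78 to 11.11 with vehicle. Of these distal probe sets 2 fell, Clec2h and Cubn, and none rose. Of 10 villus tip markers 1 fell, Slc28a2, and none rose, with a median of 0.04. At an unadjusted limma p under 0.05, 3 of these 10 were lower and 3 higher. Leaving out TUDCA replicate 1 or 2 ended the calls of Clec2h, Cubn and Slc28a2, and those of Cubn and Slc28a2 ended with 6 of the 12 omissions each (adjusted p up to 0.131). Of 8 goblet cell markers 3 rose, Spink4 (0.86), Spdef (0.38) and Agr2 (0.56), none fell, and leaving out TUDCA replicate 2 ended all 3 calls. Over all omissions the adjusted p of these goblet genes reached 0.148, that of Agr2. Of 7 villus base markers none passed in limma (3 lower and 0 higher at an unadjusted p under 0.05). Endothelial cells also express Ace, and of 12 endothelial markers none passed in limma (0 lower and 0 higher at an unadjusted p under 0.05), with a median of −0.11. The description field of the labels names reticular cells rich in CXCL12, and the 8 markers of such cells had mean levels from 6.54 to 6.95 and none passed in limma (0 lower and 0 higher at an unadjusted p under 0.05). The part of any of these cell types in the peptidase differences was not tested.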

How the data were processed

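RNA of small intestine was labelled with the Affymetrix WT Pico kit and hybridised to mouse gene arrays, per the labels' protocols. The values are log2 signals as the authors deposited them, made with oligo and RMA according to the submitters' processing notes (background correction, quantile normalisation and summarisation), without versions. Array medians ran from 5.90 to 5.95. Filters applied before deposit are not given in the sources used here, and scanner files were not used here.

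Names came from the platform's annotation, in which 21557 probe sets had 1 gene, 787 several and 1647 none. All entered limma 3.58.1 in R 4.3.3 (lmFit, eBayes with an intensity trend) with treatment and number range as terms, two-sided, with Benjamini-Hochberg adjustment and a threshold of 0.05. The fit was tested on simulated data. Members and lists were chosen with earlier results of these data known. The genes named were the 9 members, up to 5 per list by smallest p (6 for transporters), and the closest pattern per member. Abcg8 and Adam10 were named besides, after their values were seen. The alternatives are given in the closing section. Promoter sequences are RefSeq's (GRCm38.p6).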

Additional observations from a re-analysis of the deposited data

Results flagged for a closer look

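Mme on vehicle replicate 5 stood apart from the other vehicle arrays, at a log2 value of 9.44, with the next at 10.32 and the highest at 10.82. The gap was 0.637 of the group's range. It was the only one of 18 checks (9 genes in 2 groups) to stand apart in this way. Chance flags about 1 in 20 such checks, so 1 of 18 is near what chance gives.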

How the results depend on the processing

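The differences of Ace, Dpp4, Anpep, Mep1a, Mep1b, Mme, Xpnpep2 and Naaladl1 were negative under all 26 alternatives, and Ace also kept its call under all 26. Some of the 26 could not change a difference: the threshold of 0.1, the variance step without a trend or with robust variances, and leaving out dim probe sets. The looser threshold could not end a call either. The count of peptidase genes called lower, 8 (1.52% of all probe sets), ranged from 4 to 8 with each array left out. The 4 were without TUDCA replicate 1 (0.629% of all probe sets). The count was 5 in the low number range alone (1.38% of all probe sets) and 1 in the high range alone (0.0125%). It was 5 after renewed quantile normalisation (1.39%), 5 without the variance trend (1.2%) and 3 with arrays centred on enterocyte markers (0.659%). Mme and Xpnpep2 each lost their call under 13 of the 26. None of the 26 alternatives called a peptidase gene higher. With arrays centred on enterocyte markers Enpep was at 0.017 (adjusted p = 0.893), and on all-epithelium markers it was called (−0.29, adjusted p = 0.04997). With a replicate block the count was 7, with or without the number range (0.792% and 1.7% of all probe sets called lower). Anpep was lost (−0.25, adjusted p = 0.107, and −0.22, adjusted p = 0.0544). The labels do not say what a number shares, and r between same-numbered arrays ran from −0.06 to 0.26, over 0.1 in 3 of 6 pairs, so the arrays were not taken as paired. That 7 of 12 arrays correlated best with their own number is a hint from the data, not the design. None of 7 alternatives gave a called interaction with the range. Over all probe sets the counts of lower and higher calls, 364 and 241, ranged with single arrays left out from 151 to 417 and from 91 to 292, and over the other alternatives from 3 to 1121 and from 6 to 2348. The share of calls that were lower was 60.2%, and 92.6% and 6.3% with centring on the epithelial and enterocyte lists. The values of Anpep lie near the upper end of the arrays' range.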
